A study of Mus musculus with 26 samples.

Results

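The genes described here are 10 chromatin repressor genes expressed in single cells of the mouse retina: Ezh1, Ezh2, Eed, Suz12, Dnmt1, Dnmt3a, Hdac1, Hdac2, Rbbp4 and Rbbp7. They were chosen by name, and every probe set annotated to 1 of them alone was taken, which gave 31 of the 45101 probe sets on the array and 10 of 18193 genes. All 10 were detected in at least 2 of the 26 cells and all 10 are described, detected or not.

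Polycomb repressive complex 2 (PRC2) places the methyl mark on a lysine of histone H3 that goes with silenced developmental genes. Ezh2 or Ezh1 is its catalytic subunit, Eed and Suz12 are its other core subunits, and Rbbp4 and Rbbp7 are histone-binding proteins that PRC2 shares with histone deacetylase complexes. Dnmt1 copies DNA methylation after replication, Dnmt3a sets it on unmethylated DNA, and Hdac1 and Hdac2 remove acetyl groups from histones. As background, Ezh2 and Dnmt1 are known from dividing progenitors of the nervous system, and Ezh1 is known from cells that have left the cycle.

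The N1-CKO group holds 13 cells and the WT group 13 cells, each cell on an Affymetrix mouse expression array of its own. Both groups came from Notch1 floxed mice on a C57BL/6 background and both are homozygous for the Notch1 flox allele, so the WT cells also carry it. Retinas were electroporated on postnatal day 0 and collected on postnatal day 3. N1-CKO cells received CAG:Cre, whose recombinase deletes the floxed part of Notch1, with CALNL-GFP, a reporter that Cre turns on; WT cells received CAG:GFP. CAG is a broadly active promoter and so fixes no cell type, and the cells were picked singly by their GFP. No animal, litter or day of picking is named for any cell, so each genotype stands as 1 sample here, and no test was made between genotypes. An SD over cells describes the spread of cells, which may be technical in part.

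Values are MAS5 signals on a log2 scale, floored at the median over all arrays together (4.65 on the log2 scale). Detected means that a probe set was at or above the 90th percentile of the array it was read on. Where a gene had several probe sets, the one with the highest mean is given first and the others beside it. Differences are between mean log2 signals, N1-CKO minus WT. A signal missed in reverse transcription or amplification and a transcript that was not made look the same in a single cell, so a group mean mixes the number of cells with the transcript and the signal in those cells. Signals of different probe sets are not set against each other.

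Notch1 itself was detected in 8 of 13 N1-CKO cells and 10 of 13 WT cells, at 10.35 ± 4.21 in N1-CKO cells and 12.00 ± 3.06 in WT cells (SD over 13 cells each), a difference of -1.65. The sources used here do not say whether its probe set lies in the deleted part, so it does not check the labels. The cell-cycle score, the mean log2 signal of 41 genes of the cycle, ran from 5.36 to 10.2 with a median of 6.51 in N1-CKO cells, and from 6.08 to 11.7 with a median of 9.81 in WT cells. Mki67, a marker of cycling cells, was detected in 4 N1-CKO and 11 WT cells, while Tubb3, a neuronal tubulin, was detected in 9 N1-CKO and 5 WT cells. By list, 22 of 23 G2/M genes and 10 of 18 G1/S genes were lower in N1-CKO cells by at least 1. Of 12 retinal progenitor genes 9 were lower and 1 higher by at least 1. Of 18 neuronal genes 9 were higher and 2 lower by at least 1, and of 7 photoreceptor genes 4 were higher and 0 lower. The part of this difference in cell makeup in the differences of the 10 genes was not tested. Of the markers of other cells, 5 of 6 endothelial genes, 6 of 7 microglial genes and 3 of 5 pigment epithelium genes were detected in 0 cells, Pecam1, Csf1r and Rpe65 among them. Kdr was detected in 3 N1-CKO and 9 WT cells. The astrocyte marker Slc1a2 was detected in 7 N1-CKO and 3 WT cells, but Gfap in 0 N1-CKO and 1 WT cell and Aqp4 in 0 cells. The haemoglobin gene Hba-a2 was detected in 13 N1-CKO and 13 WT cells, but Hba-a1 in 1 N1-CKO and 1 WT cell. The blood marker Alas2 was detected in 0 cells. The 3' over 5' ratio of the Gapdh control probe sets, a sign of how far amplification reached, ran from 1.46 to 245.4 in N1-CKO cells (median 2.67) and from 1.40 to 3.26 in WT cells (median 1.79), and 5 N1-CKO and 2 WT cells were above 3. The arrays also separated by their 18S ribosomal RNA control into a high set of 5 N1-CKO and 5 WT cells and a low set of 8 N1-CKO and 8 WT cells. The median difference of all genes was 0.18 in the high set and -0.15 in the low set, and differences within the sets are given for the genes whose value moved most. The signal at the 90th percentile ran from 245.3 to 2164 on N1-CKO arrays and from 395.7 to 2409 on WT arrays, so detection asks for more signal on some arrays than on others.

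The start regions of the genes on which the results turn are shown first, because dividing cells use E2F factors at many genes of the cycle and the results ask which of these genes went with cycling cells. Sequences are those of RefSeq on GRCm38.p6, in the direction of transcription, from 250 bases before to 50 bases after the gene's start. Searched were the 4 E2F-type words TTTCCCGC, TTTGGCGC, TTTCGCGC and TTTGCCGC on both strands, and no match overlapped another; capitals mark a match. Of 32851 such windows, 744 (2.26%) held at least 1 of them. For 9 of the 10 genes a window was found, 13 windows in all, and 3 of the 13 held a word: 1 each of Ezh2, Suz12 and Dnmt1. Ezh2 lies on the minus strand (chr6:47594981-47595280), with TTTGGCGC 4 bases past the start.

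Ezh2: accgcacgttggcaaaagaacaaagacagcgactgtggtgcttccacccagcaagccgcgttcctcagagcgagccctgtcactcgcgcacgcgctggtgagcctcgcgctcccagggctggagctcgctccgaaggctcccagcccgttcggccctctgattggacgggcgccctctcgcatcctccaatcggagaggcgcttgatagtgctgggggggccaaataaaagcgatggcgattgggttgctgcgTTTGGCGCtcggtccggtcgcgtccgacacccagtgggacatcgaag

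Its paralog Ezh1, on the minus strand (chr11:101226414-101226713), held none of the words and 23 CG pairs, against 31 in the window of Ezh2.

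Ezh1: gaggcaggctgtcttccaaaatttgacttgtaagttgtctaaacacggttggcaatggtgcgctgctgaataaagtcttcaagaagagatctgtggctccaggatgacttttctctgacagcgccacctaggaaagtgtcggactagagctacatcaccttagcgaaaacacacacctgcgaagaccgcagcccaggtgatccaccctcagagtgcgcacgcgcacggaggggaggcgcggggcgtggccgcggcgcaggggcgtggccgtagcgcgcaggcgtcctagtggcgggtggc

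Suz12 lies on the plus strand (chr11:79992856-79993155), with TTTCCCGC at position -219 from the start and 41 CG pairs.

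Suz12: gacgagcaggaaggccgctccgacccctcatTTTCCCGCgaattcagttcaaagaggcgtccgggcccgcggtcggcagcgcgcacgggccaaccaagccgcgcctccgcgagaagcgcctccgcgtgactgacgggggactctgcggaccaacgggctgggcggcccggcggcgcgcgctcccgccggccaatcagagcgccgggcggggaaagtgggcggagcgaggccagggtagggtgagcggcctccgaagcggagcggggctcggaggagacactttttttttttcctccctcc

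Dnmt1, on the minus strand, has 3 windows, and the one at chr9:20952574-20952873 held both TTTCGCGC, read on the opposite strand at position -219, and TTTGGCGC at position 34.

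Dnmt1: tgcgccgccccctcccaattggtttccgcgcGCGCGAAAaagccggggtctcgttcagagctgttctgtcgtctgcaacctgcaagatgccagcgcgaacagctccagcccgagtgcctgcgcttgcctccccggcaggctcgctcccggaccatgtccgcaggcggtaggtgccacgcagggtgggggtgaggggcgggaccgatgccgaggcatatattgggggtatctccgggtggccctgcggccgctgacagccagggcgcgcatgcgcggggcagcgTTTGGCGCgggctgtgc

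Rbbp7, on the plus strand (chrX:162760122-162760421), held 38 CG pairs and none of the words, and Rbbp4, not shown, held 39 and none.

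Rbbp7: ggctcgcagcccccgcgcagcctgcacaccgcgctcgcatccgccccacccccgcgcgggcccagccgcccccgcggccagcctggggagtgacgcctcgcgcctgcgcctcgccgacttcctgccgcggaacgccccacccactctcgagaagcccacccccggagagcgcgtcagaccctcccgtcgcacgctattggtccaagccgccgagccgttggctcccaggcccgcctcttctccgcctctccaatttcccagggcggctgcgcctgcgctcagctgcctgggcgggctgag

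A match is a run of letters and no measured binding. The median over all windows was 7 CG pairs, and 11.7% of windows held at least 30, so 4 of the 5 windows shown are among the CG-richest in the table. Each of the 4 words itself holds a CG pair. The windows with a word held 31 (Ezh2), 33 (Dnmt1) and 41 (Suz12) CG pairs. The share with a word among CG-rich windows was not computed, so 3 of 13 is not set against 2.26% on like windows.

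Between the genotypes, the PRC2 genes Ezh2 and Suz12, the histone-binding gene Rbbp7 and the deacetylase gene Hdac1 had mean signals lower by at least 1 in N1-CKO cells. Rbbp7 was detected in 6 N1-CKO and 12 WT cells, Ezh2 in 7 N1-CKO and 11 WT cells, and Suz12 in 4 N1-CKO and 8 WT cells. Rbbp4, Dnmt1 and Hdac2 were detected in nearly the same number of cells of each genotype, with differences of 0.33, 0.12 and -0.53. At the 95th percentile Dnmt1 was detected in 3 N1-CKO and 6 WT cells. Of the 10 genes, 4 were lower in N1-CKO by at least 1 and 0 higher by at least 1, against 22.3% and 19.1% of the 8280 genes detected in at least 2 cells. The median difference of the 10 was -0.80, that of all 8280 genes -0.04, and 7 of the 10 had the lower mean in N1-CKO cells. The median of the 10 was -0.13 on high 18S arrays and -0.50 with all probe sets of a gene averaged. In 0 of the 10 did the difference exceed the larger SD over cells.

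**Figure D1:**
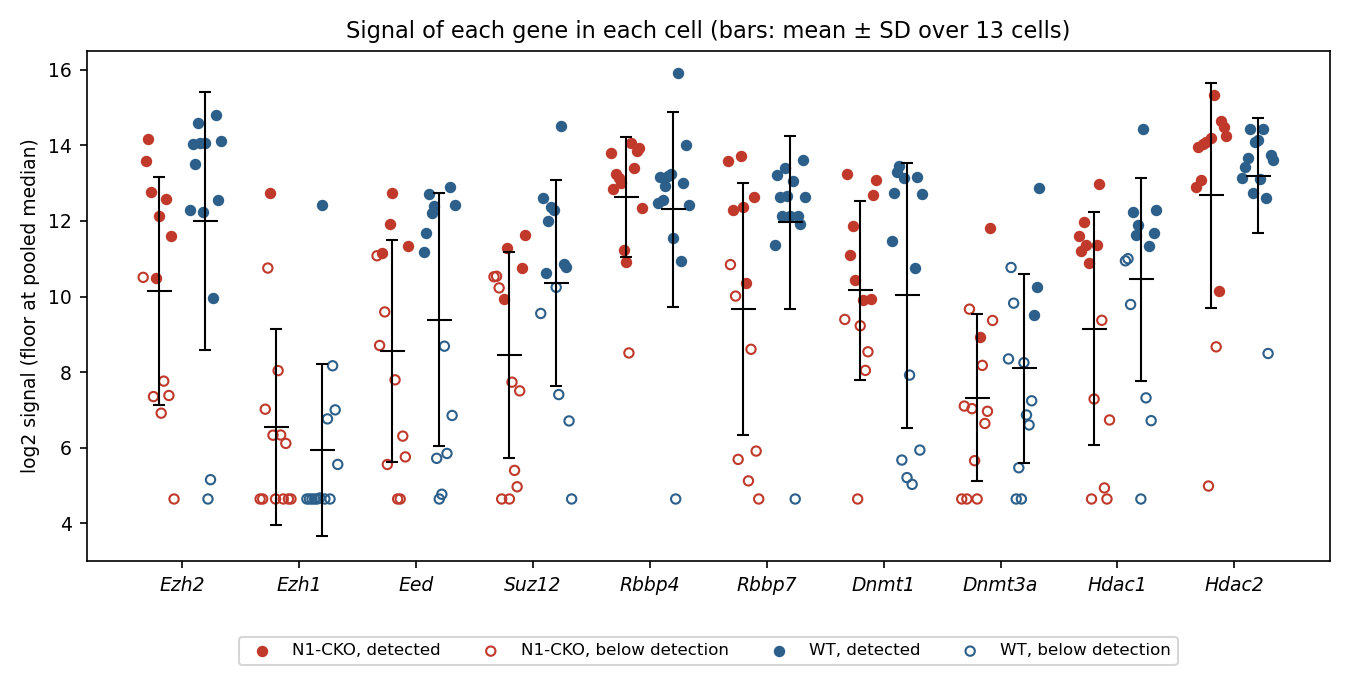
Signal of each of the 10 genes in each cell (log2, brightest probe set), N1-CKO cells in red on the left and WT cells in blue on the right of each pair. Filled points are cells above the 90th percentile of their own array, open points are below it, and bars show the mean ± SD over 13 cells: the groups overlap for every gene, and Ezh1 has 1 filled point in each group.

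Ezh2 (probe set 1416544_at), the catalytic subunit known from dividing cells, had a signal from 4.65 to 14.2 with a median of 10.5 in N1-CKO cells, and from 4.65 to 14.8 with a median of 13.5 in WT cells. Its mean was 10.15 ± 3.01 in N1-CKO cells and 12.00 ± 3.41 in WT cells (SD, n = 13 cells each), a difference of -1.85, and 8.57% of genes had a lower one. The groups overlap: N1-CKO cells 2 and 3 reach the WT median, and WT cells 8 and 9 lie at or near the floor. In detected cells the mean was 12.47 ± 1.22 (7 N1-CKO cells) and 13.29 ± 1.42 (11 WT cells), a smaller distance of -0.81. On low 18S arrays Ezh2 was detected in 5 of 8 N1-CKO and in 8 of 8 WT cells, with means of 10.38 ± 2.99 in N1-CKO and 13.61 ± 0.88 in WT cells, a difference of -3.22. On high 18S arrays it was detected in 2 of 5 N1-CKO and 3 of 5 WT cells, and the difference was 0.34, with the sign turned. With the Gapdh ratio at most 3 the difference was -1.04.

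Ezh1 (1449023_a_at), the paralog, was above detection in 1 N1-CKO and 1 WT cell, N1-CKO cell 5 at 12.75 and WT cell 7 at 12.41. Every other cell lay below its own threshold, and 6 N1-CKO and 7 WT cells were at the floor. The median was 6.12 in N1-CKO and 4.65 in WT cells, and the mean 6.56 ± 2.59 in N1-CKO and 5.93 ± 2.28 in WT cells, a difference of 0.63 in a gene that was mostly below detection. Without WT cell 7 the difference is 1.17. Its 3 other probe sets were detected in 0 cells, with differences from -0.52 to 0.84. Both detected cells have a Gapdh ratio above 3: 245.4 in N1-CKO cell 5 and 3.26 in WT cell 7.

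Eed (1448653_at), the subunit that reads the methyl mark, ran from 4.65 to 12.7 with a median of 8.71 in N1-CKO cells and from 4.65 to 12.9 with a median of 11.2 in WT cells. It was detected in 4 N1-CKO and 7 WT cells, and its mean was 8.55 ± 2.94 in N1-CKO and 9.39 ± 3.35 in WT cells, a difference of -0.83. The 4 N1-CKO cells with Eed were cells 3, 6, 7 and 13. Its second probe set was detected in 0 cells.

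Suz12 (1420021_s_at), which holds the complex together, ran from 4.65 to 11.6 with a median of 9.93 in N1-CKO cells, and from 4.65 to 14.5 with a median of 10.8 in WT cells. The mean was 8.44 ± 2.73 in N1-CKO and 10.35 ± 2.72 in WT cells, a difference of -1.91, and 8.01% of genes had a lower one. It was detected in 4 N1-CKO cells, which all had a Gapdh ratio above 3, and in 8 WT cells. With the ratio limited to 3, a limit applied to detection after the data were seen, this probe set was detected in 0 of 8 N1-CKO cells (95% exact interval up to 36.9%) and 7 of 11 WT cells (30.8% to 89.1%). Any of its probe sets was detected in 4 of these 8 N1-CKO cells, cells 1, 2, 8 and 10, and in 7 of the 11 WT cells. The difference was -2.89 on high and -1.30 on low 18S arrays, and -0.85 between medians over cells. Its 5 other probe sets gave differences of -2.33, -1.72, -1.11, -0.72 and 0.44, the last detected in 1 cell. Counted over any probe set, Suz12 was detected in 8 N1-CKO and 8 WT cells, so its difference in detection holds for single probe sets only. The part of amplification quality in it was not tested.

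Rbbp7 and Rbbp4 are close relatives that bind histones. Rbbp7 (1456227_x_at) ran from 4.65 to 13.7 with a median of 10.3 in N1-CKO cells, and from 4.65 to 13.6 with a median of 12.6 in WT cells. Its mean was 9.67 ± 3.33 in N1-CKO and 11.96 ± 2.29 in WT cells, a difference of -2.29, and 4.83% of genes had a lower one. In detected cells the mean was 12.49 ± 1.21 (6 N1-CKO cells) and 12.57 ± 0.67 (12 WT cells), a distance of -0.08. All WT cells but cell 9 were at 11.37 or higher, whereas N1-CKO cells 5, 9, 12 and 13 were under 6. Its other probe set, 1415775_at, was detected in 6 N1-CKO and 11 WT cells with a difference of -2.07. The difference was -2.92 on low 18S arrays, -1.27 on high 18S arrays and -1.16 with the Gapdh ratio at most 3.

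Rbbp4 (1434892_x_at) was detected in 12 N1-CKO and 12 WT cells, with a signal from 8.51 to 14.1 and a median of 13.1 in N1-CKO cells and from 4.65 to 15.9 and a median of 12.9 in WT cells. The mean was 12.64 ± 1.58 in N1-CKO and 12.30 ± 2.59 in WT cells, a difference of 0.33. It was 0.91 on high and -0.03 on low 18S arrays, and -0.31 without WT cell 8. Its other 3 probe sets were detected in at most 5 cells and gave differences from -0.05 to 0.52. Rbbp4 and Rbbp7 were detected together in 16 cells, Rbbp4 without Rbbp7 in 8 and Rbbp7 without Rbbp4 in 2, N1-CKO cell 8 and WT cell 8. Rbbp4 was thus present in 7 of the 7 N1-CKO cells without Rbbp7.

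Few cells showed all 3 core subunits together. Ezh1 or Ezh2 with Eed and Suz12 was detected in 1 of 13 N1-CKO cells (7.69%, 95% exact interval 0.195% to 36.0%) and 5 of 13 WT cells (38.5%, 13.9% to 68.4%), intervals that overlap and cover counting error only. By the brightest probe sets, none of Ezh2, Eed and Suz12 was detected in 4 N1-CKO cells (1, 8, 9 and 11) and 1 WT cell. In N1-CKO cells 1 and 8, however, another probe set of Suz12 was detected, so this count depends on the probe set. Of the 10 genes, a cell showed 2 to 7 with a median of 5 among N1-CKO cells and 3 to 8 with a median of 7 among WT cells. Ezh2, Eed, Suz12 and Rbbp7, 4 of the 10 genes, were detected in at least 3 fewer N1-CKO than WT cells, as were 13.4% of genes, and 0 of the 10 were detected in at least 3 more, as were 12.2% of genes. Under a threshold at the 80th percentile only Rbbp7 remained among the 10, with 9 N1-CKO and 12 WT cells, and with a common signal threshold for all arrays Rbbp7 and Suz12 remained. At the 95th percentile Dnmt1 took the place of Eed. Counted over any probe set, Dnmt3a took the place of Suz12.

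**Figure D2:**
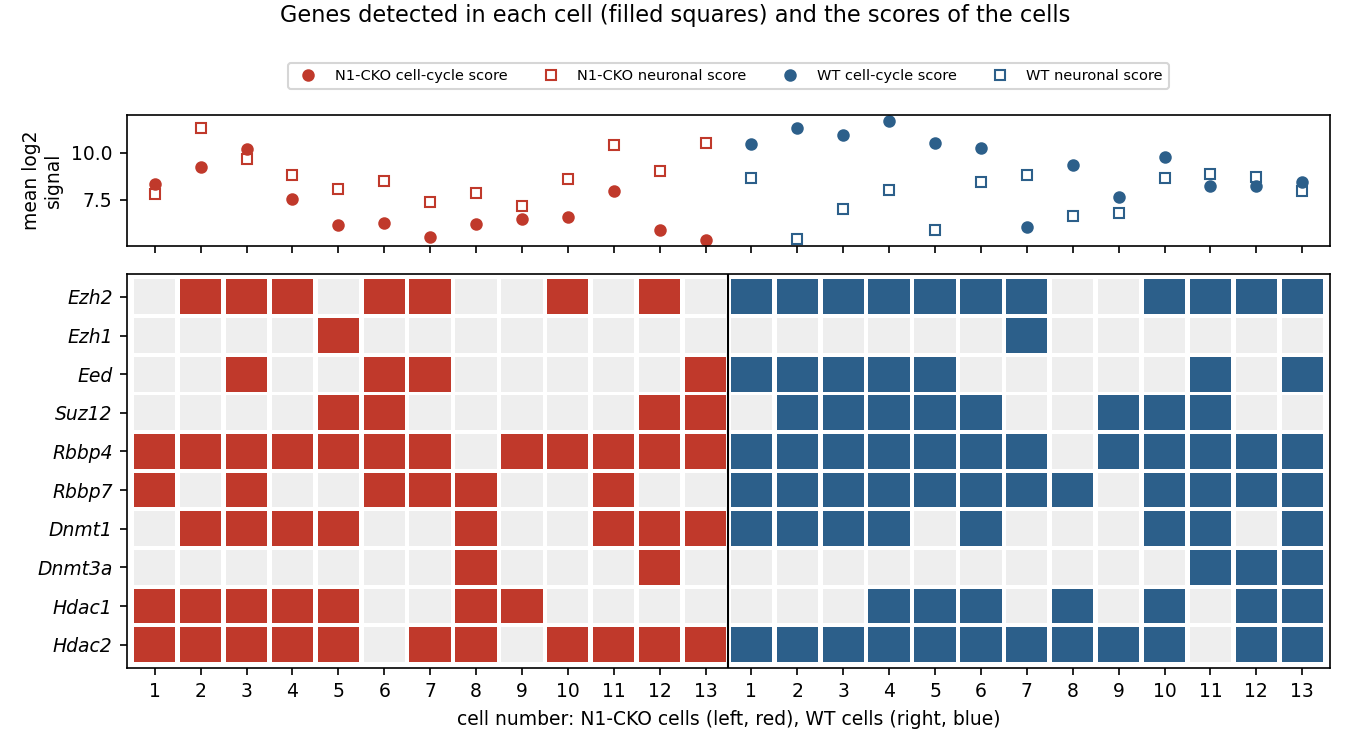
Cells in which each gene was detected (filled squares), N1-CKO cells 1 to 13 on the left and WT cells 1 to 13 on the right, with each cell's cell-cycle and neuronal score (mean log2 signal) above. The rows of Rbbp4 and Hdac2 are nearly full in both groups, and Rbbp7 is filled in 6 N1-CKO and 12 WT cells.

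Dnmt1 (1422946_a_at), the maintenance methyltransferase, was detected in 8 N1-CKO and 8 WT cells. Its signal ran from 4.65 to 13.2 with a median of 9.93 in N1-CKO cells and from 5.03 to 13.4 with a median of 11.5 in WT cells, and the mean was 10.16 ± 2.37 in N1-CKO and 10.04 ± 3.50 in WT cells, a difference of 0.12. In detected cells it was 11.53 ± 1.38 in N1-CKO and 12.59 ± 0.96 in WT cells, a difference of -1.06. Of the WT cells, 7 were at 11.48 or above and 4 below 6, cells 5, 7, 9 and 12. The difference was 0.94 on high and -0.39 on low 18S arrays and -1.54 between medians over cells, so its sign is not fixed. The other 2 probe sets gave differences of -0.47 and -0.26.

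Dnmt3a (1423063_at), a de novo methyltransferase, was detected in 2 N1-CKO and 3 WT cells, from 4.65 to 11.8 with a median of 7.03 in N1-CKO and from 4.65 to 12.9 with a median of 8.25 in WT cells. The mean was 7.33 ± 2.20 in N1-CKO and 8.10 ± 2.50 in WT cells, a difference of -0.77. Its probe sets disagree: 1460324_at was detected in 1 N1-CKO and 6 WT cells with a difference of -2.26, and the other 3 in at most 2 cells each with differences from -1.11 to 0.23. Counted over any probe set, Dnmt3a was detected in 5 N1-CKO and 8 WT cells. By the brightest probe sets, Dnmt1 and Dnmt3a were detected together in 4 cells, Dnmt1 alone in 12, Dnmt3a alone in 1 and neither in 9. The cells in which only another probe set of Dnmt3a was detected count as without it here. How far the 2 genes share cells therefore depends on the probe set.

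Hdac1 (1448246_at) was detected in 7 N1-CKO and 7 WT cells. It ran from 4.65 to 13.0 with a median of 10.9 in N1-CKO cells and from 4.65 to 14.4 with a median of 11.3 in WT cells, with means of 9.15 ± 3.07 in N1-CKO and 10.45 ± 2.69 in WT cells. The difference of -1.30 turns on single cells: without N1-CKO cell 6 or 12 it is -0.92 each, without N1-CKO cell 11 it is -0.95, without WT cell 8 it is -0.97, and between medians it is -0.45. It was -2.01 on low 18S arrays and -0.17 on high 18S arrays. The number of cells with Hdac1 was the same in both genotypes.

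Hdac2 (1445684_s_at) was detected in 11 N1-CKO and 12 WT cells, with a signal from 4.99 to 15.3 and a median of 14.0 in N1-CKO cells and from 8.49 to 14.4 and a median of 13.6 in WT cells. Its mean was 12.67 ± 2.97 in N1-CKO and 13.20 ± 1.53 in WT cells, a difference of -0.53, and probe set 1449080_at gave 0.01 with 11 N1-CKO and 10 WT cells. Without N1-CKO cell 6 the difference was 0.11, and between medians over cells 0.42. Hdac1 and Hdac2 were detected together in 13 cells, Hdac2 alone in 10 and Hdac1 alone in 1.

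**Figure D3:**
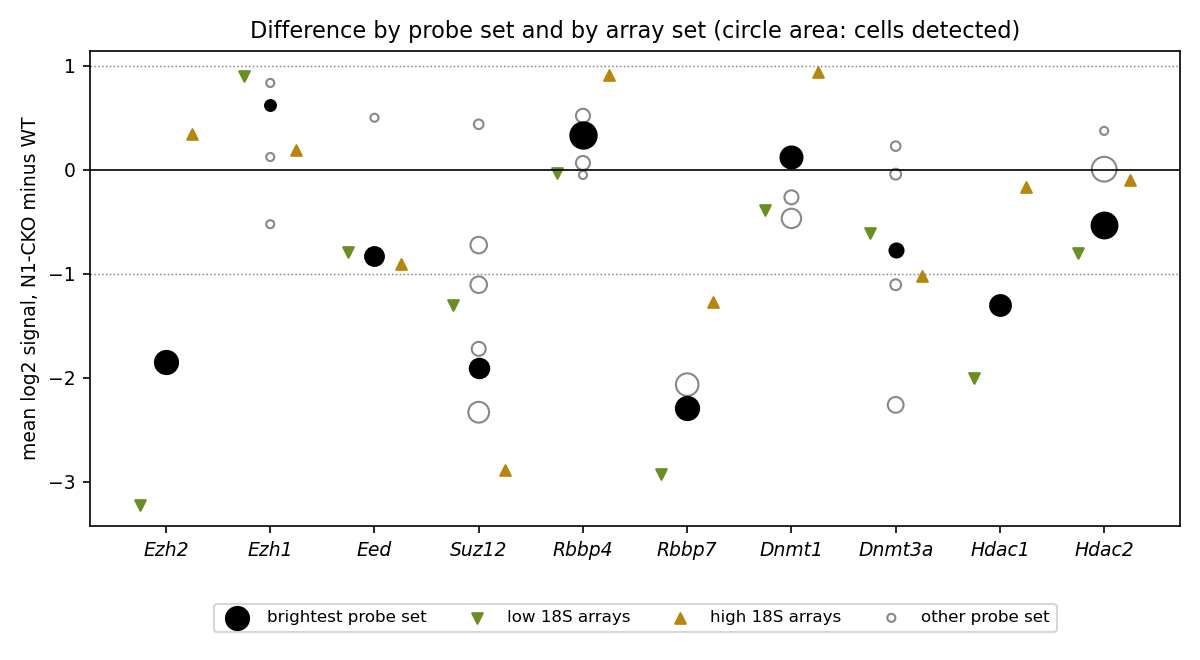
Difference in mean log2 signal (N1-CKO minus WT) of every probe set of each gene, filled for the brightest and open for the others, with circle area by the number of cells detected, and triangles for the brightest probe set on low and high 18S arrays alone. Dotted lines mark a difference of 1 either way: Ezh2 lies at -3.22 on low and 0.34 on high 18S arrays, and both probe sets of Rbbp7 lie below -2.

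Whether a gene went with cycling cells was read in 2 ways, by the correlation with the cell-cycle score within a genotype and by detection with Mki67. Mki67 is 1 of the 41 genes of the score, so the 2 ways are not independent. These are over cells that share amplification and array scaling, so they describe the cells and carry no p-value. In N1-CKO cells Ezh2 had r = 0.54 with the cycle score (rho 0.59, n = 13 cells) and Rbbp7 r = 0.51; without the 2 cells farthest from the median score Ezh2 had 0.19 and Rbbp7 0.52. In WT cells Ezh2 had r = 0.20 and Rbbp7 0.33, the second at -0.11 without the 2 farthest cells. In WT cells Hdac1 had r = 0.63 (rho 0.31) and Dnmt1 r = 0.59 (rho 0.64), and without the 2 farthest cells they had 0.16 and 0.29. In N1-CKO cells Hdac1 had r = 0.43 and Dnmt1 0.21, and 0.26 and -0.11 without the 2 farthest cells. Eed had r = 0.13 in N1-CKO and 0.45 in WT cells, and Suz12 0.17 in N1-CKO and 0.27 in WT cells. Of 4682 genes detected in at least 6 cells, 8.07% had r of at least 0.5 with the cycle score in N1-CKO cells and 14% in WT cells. The other probe sets of Dnmt1 had r = 0.47 and 0.56 in WT cells.

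Ezh1 had r = -0.85 with the cycle score in WT cells (rho -0.85; -0.79 without WT cell 7) and -0.01 in N1-CKO cells. All but 1 of the WT values behind it lie below detection, and its 3 other probe sets had r from -0.38 to -0.27 in WT cells, so the size of the correlation is that of 1 probe set. An r of -0.5 or lower was reached by 2.71% of the 4682 genes in WT cells. Ezh1, detected in 2 cells, is not among these genes, which were detected in at least 6. The share therefore does not say how rare such an r is among genes mostly below detection. By its brightest probe set Dnmt3a had r = -0.41 in N1-CKO and -0.26 in WT cells, also on few detected cells. Its probe set 1460324_at, detected in 1 N1-CKO and 6 WT cells, had r = 0.08 in N1-CKO and 0.01 in WT cells. The remaining probe sets of Dnmt3a had r from -0.24 to -0.10 in N1-CKO and from -0.23 to 0.16 in WT cells. The sign for Dnmt3a therefore depends on the probe set. Rbbp4 and Hdac2 had r of 0.35 and 0.11 in N1-CKO cells and -0.03 and 0.10 in WT cells. Ezh2 and Ezh1 were detected together in 1 cell, WT cell 7.

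**Figure D4:**
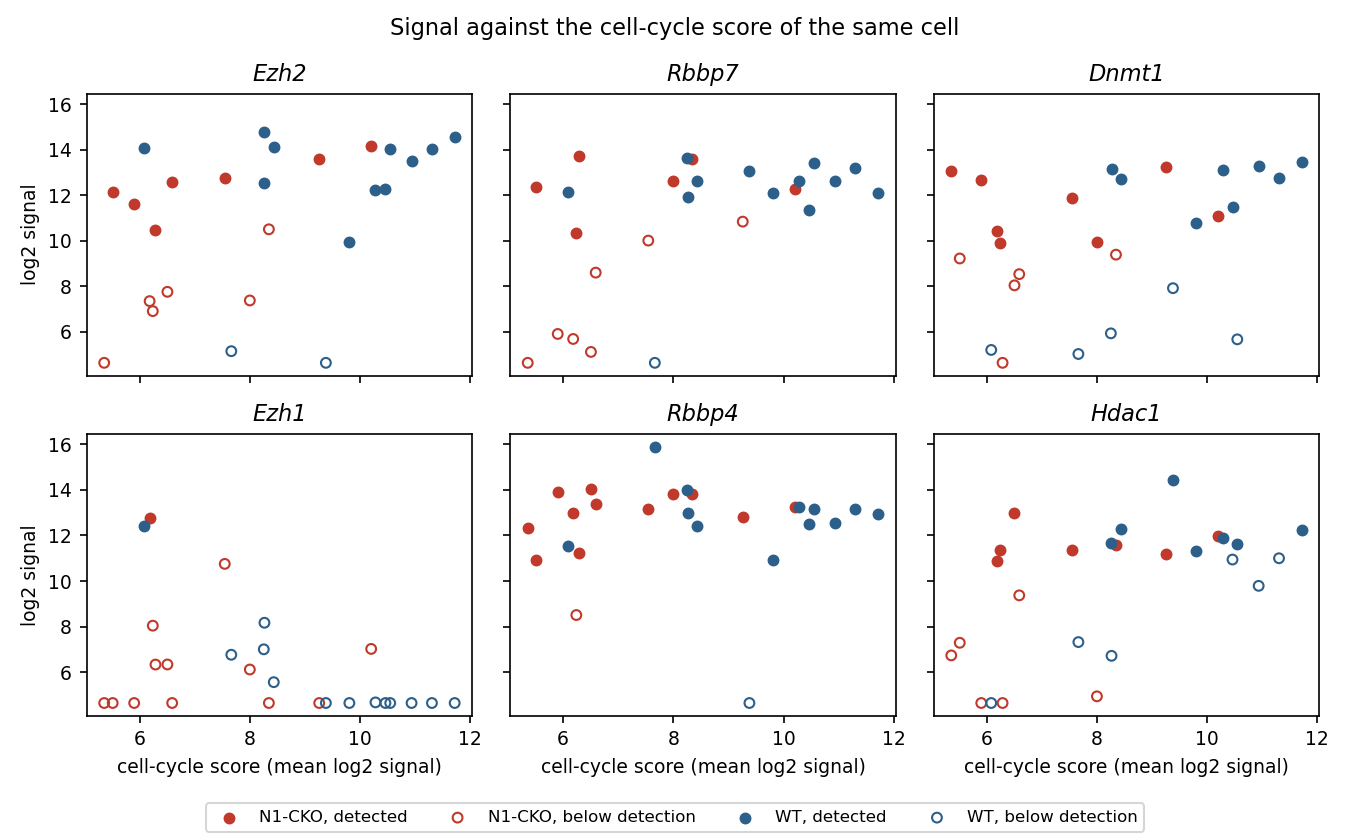
Log2 signal of Ezh2, Rbbp7, Dnmt1, Ezh1, Rbbp4 and Hdac1 against the cell-cycle score of the same cell (mean log2 signal of 41 genes), N1-CKO in red and WT in blue, filled where detected. Rbbp4 was detected in 24 of the 26 cells, and 7 of the 8 cells without Rbbp7 are N1-CKO cells.

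The largest gap with Mki67 among the 10 genes was that of Rbbp7. It was detected in 14 of the 15 cells with Mki67 and in 4 of the 11 without it, a gap of 57.0 percentage points; 0.940% of genes had as large a gap and 2.2% had 50 points or more. This gap and its share pool the genotypes, and both Mki67 and Rbbp7 were in fewer N1-CKO than WT cells. Cycling and genotype are therefore not read apart in them. Within genotypes Rbbp7 was in 3 of 4 N1-CKO cells with Mki67 and 3 of 9 without, and in 11 of 11 WT cells with it and 1 of 2 without. Hdac1 was in 10 of 15 and 4 of 11 (30.3 points; 12.1% of genes as large), Ezh2 in 12 of 15 and 6 of 11, and Dnmt1 in 11 of 15 and 5 of 11. Within genotypes Ezh2 was in 2 of 4 N1-CKO cells with Mki67 and 5 of 9 without it, and in 10 of 11 WT cells with it and 1 of 2 without. Hdac1 was in 3 of 4 N1-CKO cells with Mki67 and 4 of 9 without, and in 7 of 11 and 0 of 2 WT cells. Dnmt1 was in 3 of 4 N1-CKO cells with Mki67 and 5 of 9 without, and in 8 of 11 and 0 of 2 WT cells. Ezh1 was detected in 0 of 15 cells with Mki67 and in 2 of 11 without. By the brightest probe sets and over both genotypes, Suz12, Rbbp4 and Dnmt3a had gaps of at most 2.42 points. For Suz12 the genotypes ran opposite ways. It was in 0 of 4 N1-CKO cells with Mki67 and 4 of 9 without, and in 7 of 11 and 1 of 2 WT cells.

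The largest gap with Tubb3 was that of Dnmt1. The gene was detected in 12 of the 14 cells with Tubb3 and in 4 of the 12 without, a gap of 52.4 points that 0.684% of genes reached; 0.919% had 50 points or more. It was in 8 of 9 N1-CKO cells with Tubb3 and 0 of 4 without, and in 4 of 5 WT cells with it and 4 of 8 without. In N1-CKO cells Dnmt1 had r = 0.59 with the score of 18 neuronal genes (rho 0.76, n = 13; 0.32 without the 2 farthest cells), and its other probe sets had r = 0.58 and 0.63; in WT cells it was 0.13. Of 4682 genes, 7.24% had r of at least 0.5 in N1-CKO cells. Tubb3 is 1 of the 18 genes of the score. The cycle and neuronal scores had r = 0.44 with each other in N1-CKO cells and -0.41 in WT cells. In N1-CKO cells, going with neuronal cells was therefore not read apart from going with cycling cells. With Syt1, another neuronal gene, Dnmt1 was detected in 8 of 13 cells and without it in 8 of 13, so the gap was not seen with that marker. Eed ran the other way with Tubb3, in 4 of 14 cells with it and 7 of 12 without. With Syt1 this turned round: Eed was in 7 of 13 cells with Syt1 and 4 of 13 without.

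The 8 genes detected in at least 6 cells, which leaves out Ezh1 and Dnmt3a, were also correlated with each other. With group means taken off, their 28 pairs had a median r of 0.06 over 26 cells and ran from -0.30 to 0.48 (Ezh2 with Rbbp7). The median over pairs of all genes was not computed, so the value is not read as a trait of these genes. Ezh2 and Eed were detected together in 10 cells, Ezh2 without Eed in 8 and Eed without Ezh2 in 1.

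By the rule of highest correlation over the 26 cells with group means taken off, among 4681 genes, the genes most like each member were Dact3 (0.68), Rmnd5a and Hook1 for Ezh2, Wdr66 (0.77), Rnf103 and Pfkl for Eed, and Taf2 (0.72), Cab39 and Fdft1 for Suz12. For Rbbp4 they were Ppp1cb (0.83), Smarcc2 and Atp6v1g1, and for Rbbp7 Cnbp (0.81), Ctnna1 and Bub3. Dnmt1 was nearest to Gm6958 (0.74), Ralgapa1 and Tmem30a. Hdac1 was nearest to Tead2 (0.83), Chkb and Ptbp1, and Hdac2 to Gnb1 (0.78), Odc1 and Bcas2. Cells share library and array scaling, and no test bears on these values.

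The genes that act with the 10 were taken as 6 lists of 78 genes, of which 71 are on the array and 58 were detected in at least 2 cells. Of the 58, 16 were lower in N1-CKO by at least 1 and 14 higher, with a median of 0.04. Over the 8280 genes 22.3% were lower and 19.1% higher, shares that the counts of the lists below are also to be read beside. The DNA methylation list had 4 lower and 0 higher of 8 genes, with a median of -0.87, but 0.01 over all 12 on the array. Uhrf1, which brings Dnmt1 to replicated DNA, was detected in 0 N1-CKO and 7 WT cells, at 5.96 ± 1.84 in N1-CKO and 9.64 ± 3.85 in WT cells, a difference of -3.68. Its relative Uhrf2 was detected in 3 N1-CKO and 9 WT cells (difference -2.57). Mbd2, a reader of methylated DNA, was detected in 2 N1-CKO and 5 WT cells (-1.99), and Mbd1 in 4 N1-CKO and 2 WT cells (0.39). Dnmt1 and Uhrf1 were detected together in 0 N1-CKO and 5 WT cells.

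The other deacetylases had 5 of 10 genes higher by at least 1 in N1-CKO cells and 2 lower, with a median of 0.82. Hdac5, a class IIa deacetylase, was detected in 11 N1-CKO and 7 WT cells at 12.52 ± 1.97 in N1-CKO and 10.11 ± 4.02 in WT cells (2.41), and Hdac3 in 9 N1-CKO and 5 WT cells (1.32). Sirt6 had 1.75 and Sirt2 -1.75, both NAD-dependent deacetylases. Partners of the deacetylase complexes had 4 lower and 3 higher of 18, with Arid4b of the Sin3 complex at 1.81. Genes of the NuRD complex had both signs. Chd4, Mta1 and Gatad2b were at -1.65, -1.30 and -1.60. Their relatives Chd3, Mta2 and Gatad2a were at 1.04, 1.84 and 0.15, Mta2 on 2 N1-CKO cells and 1 WT cell.

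PRC1, the complex that binds the mark, had 5 lower and 4 higher of 16 genes. Its ligase genes Ring1 (6 N1-CKO and 3 WT cells, 1.68) and Rnf2 (4 N1-CKO and 7 WT cells, -1.76) had opposite signs, as did Pcgf2 (1.81) and Cbx6 (-1.31). PRC2 partners had 1 lower and 1 higher of 4, with Jarid2 at 1.57 (4 N1-CKO and 2 WT cells) and Mtf2 at 0.18. The eraser of the mark Kdm6b was detected in 7 N1-CKO and 4 WT cells, with a difference of 0.94.

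**Figure D5:**
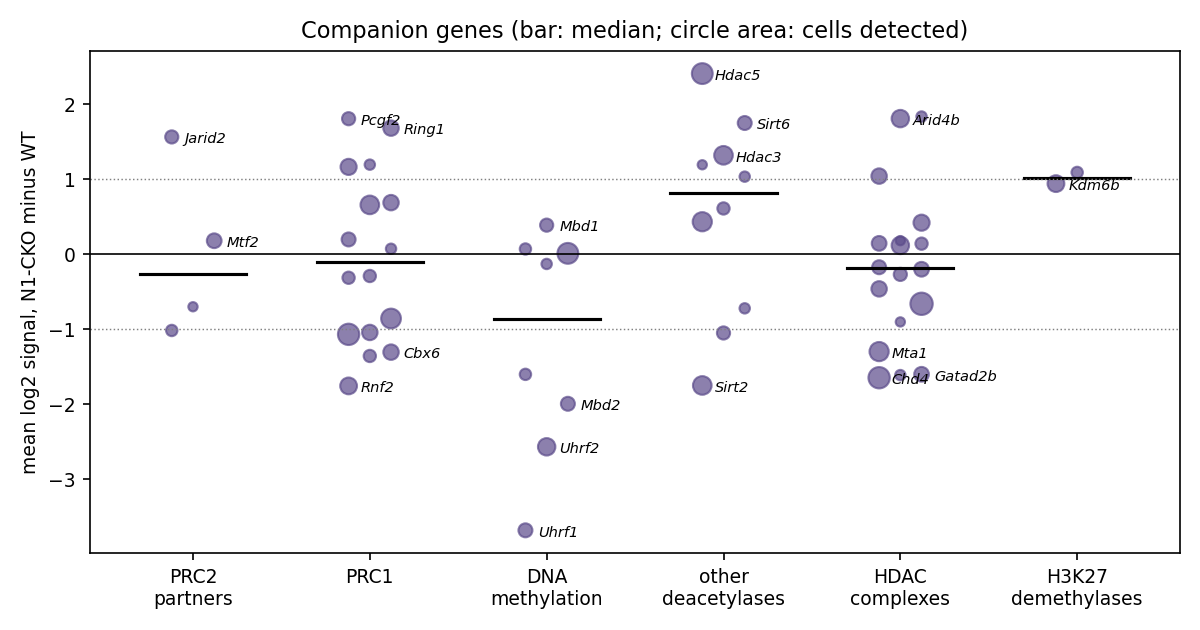
Difference in mean log2 signal (N1-CKO minus WT) of the companion genes detected in at least 2 cells, by list, with circle area by number of cells and a bar at the list's median. Uhrf1 is lowest at -3.68, and Hdac5 is at 2.41.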

How the data were processed

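Single retinal cells of 13 N1-CKO and 13 WT samples were measured on Affymetrix arrays. The authors deposited linear array intensity per probe set, and the submitters' processing notes name MAS5, without a version or parameters. Per the labels' protocols, cDNA was primed with oligo dT and amplified by PCR, so signal comes from near the 3' ends. Every array had the same trimmed mean (500.0 with 2% taken off at both ends), so total RNA cannot be compared between cells.

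Of 45101 probe sets, 64 are array controls; 34958 carry 1 gene symbol and 932 several, which were left out. Symbols came from the platform annotation and were looked up in RefSeq (GRCm38.p6) through the Entrez number, which 204 probe sets did not match. Signals were floored at the pooled median (25.02), then log2 was taken. For each gene the probe set with the highest mean over 26 cells was used. Detection means the 90th percentile of the own array (4504 probe sets), which fixes how many are called in a cell. The number of arrays limits the precision; intervals are exact Clopper-Pearson at 95%. Differences were taken over the 8280 genes detected in at least 2 cells, and correlations over the 4682 detected in at least 6. Scores are means over 41 cycle and 18 neuronal genes. Samples share only a number, which pairs nothing. Companion genes were named by a rule: up to 4 per list, the largest difference among those detected in at least 6 cells. Chd3, Mta2 and Gatad2a were added beside their named relatives. The 3 genes most like each member were named by correlation. The members, lists and alternatives were chosen with earlier results of these data known. Alternatives were the floor, mean or median, probe set, quantile normalization, detection threshold, array sets, Gapdh ratio and each cell left out. Python 3.11.15, numpy 2.4.6, pandas 2.3.3 and scipy 1.17.1 were used, and the calculation was tested on simulated data.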

Additional observations from a re-analysis of the deposited data

How the results depend on the processing

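No paired analysis was possible because the cell numbers only name cells and the results come from no test. The differences of the 10 genes changed sign in 9 of 80 recomputed values over 8 settings, 6 of them for Dnmt1 and 1 each for Ezh2, Rbbp4 and Hdac2, and in 11 of 260 with 1 cell left out, 9 of them for Dnmt1 and 1 each for Rbbp4 and Hdac2. The sign of the Ezh2 difference changed on high 18S arrays (0.34), and Eed was detected in 1 more N1-CKO than WT cell (9 N1-CKO and 8 WT) at the 80th percentile. The number of genes higher in N1-CKO cells by at least 1 was 0, but 1 with medians over cells and 0 to 1 with each cell left out (Ezh1 both times, at 1.47 and, without WT cell 7, at 1.17). The number detected in at least 3 fewer N1-CKO cells was 4, but 1 at the 80th percentile and 2 with a common signal threshold. With each cell left out, 3 to 6 genes were lower by at least 1 and the median difference ran from -1.10 to -0.54; over the other settings it ran from -1.03 with medians over cells to -0.13 on high 18S arrays. The median of the PRC2 partners was 0.32 with medians over cells and 0.23 on high 18S arrays, that of PRC1 0.17 with medians over cells and 0.06 on low 18S arrays, and that of the deacetylase complexes 0.39 on high 18S arrays, each with the sign changed. Eed lay between -1.23 and -1.04 without N1-CKO cell 1, 3, 6, 7 or 13 or WT cell 6, 7, 8, 10 or 12, and Dnmt3a between -1.14 and -1.06 without N1-CKO cell 12 or WT cell 4 or 6. Among the correlations, Suz12 with the cycle score in WT cells had 0.72 without the 2 farthest cells, and Ezh1 had -0.42 over all cells with group means taken off. The causes were not tested. The number of arrays and the signal over the floor limit all values, most of all those of Ezh1 and Dnmt3a.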
